A study of Capra hircus with 6 samples.

Results

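Thyroid hormone handling was examined through 9 genes in the goat medio-basal hypothalamus, the block at the base of the brain that holds the arcuate nucleus and median eminence. The genes were the 3 deiodinases DIO1, DIO2 and DIO3, the membrane carriers SLCO1C1, SLC16A10, SLC7A5, SLC7A8 and SLC3A2, and CRYM, the intracellular binding protein mu-crystallin. They were taken from the deposited count table by symbol and not by value, and all 9 were found among its 28907 genes. The list was nevertheless chosen with earlier results of these data known. The adult Alpine goats of the series comprised 5 in the January follicular phase (before ovulation), 5 in the January luteal phase (with a progesterone-secreting corpus luteum) and 8 in mid-May anestrus, when ovarian cycles stop. RNA was extracted per goat and mixed at random in equal amounts into 2 pools per condition, each sequenced as 1 library. The 2 follicular and 2 anestrus libraries were compared, the luteal ones were not analysed here, and no treatment or genetic alteration is given in the labels. Season and ovarian state differ together between these groups, so they cannot be told apart.

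Thyroid hormone circulates mainly as thyroxine, a prohormone. DIO2 removes an outer-ring iodine and makes triiodothyronine, the form that binds nuclear receptors, whereas DIO3 removes an inner-ring iodine and inactivates both forms. In the basal hypothalamus of seasonal mammals and birds, thyrotropin from the pars tuberalis, the part of the pituitary that wraps the median eminence, is known to induce DIO2 in tanycytes, the ependymal cells lining the floor of the third ventricle. The hormones cross membranes on carriers, and the activity of the deiodinases therefore depends on which carriers the capillary, tanycyte and astrocyte membranes hold.

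Library totals ran from 14553821 to 25292678 counts, and levels are given as CPM, the count relative to the library total after scaling by the TMM method. CPM is not corrected for transcript length, so levels were compared between libraries and not between genes. Of the tissue's defining genes, all 10 arcuate and median eminence genes listed, among them POMC, AGRP and KISS1, were detected in all 4 pools. Pituitary tissue was present as well, since CGA, the common alpha subunit of the pituitary glycoprotein hormones, was at 5232 and 4295 CPM in the follicular pools and 13142 and 10309 CPM in the anestrus pools. Of the 12 tanycyte markers listed, 11 had enough counts to be tested, among them VIM at 537 to 733 CPM and RAX at 0.23 to 2.87 CPM. The remaining marker, GPR50, was at 0 counts in 3 of the 4 pools. Follicular pool 1 stood apart for TTR, the thyroid hormone carrier secreted by the choroid plexus, at 252 CPM against 17.7 to 61.1 CPM in the other pools. In this bulk tissue, fewer cells of a type and less RNA per cell cannot be told apart.

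DIO2 and the carrier SLCO1C1 were lower in the January follicular phase than in mid-May anestrus, by 2.3-fold and 2.84-fold. A difference counts as called below at a Benjamini-Hochberg adjusted p under 0.05 in edgeR's quasi-likelihood test over all genes tested. Of the 9 genes, 8 had enough counts to be tested, of which 2 fell, 0 rose and 6 did not pass. Over all 16756 genes tested, 0.203% were called, with 0.191% lower and 0.0119% higher in the follicular phase. The p-values rest on the spread between 2 pools per condition, moderated by that of other genes, and not on the spread between goats. DIO2 and SLCO1C1 were thus tested with 10.7 degrees of freedom, where the pools alone give 2. The median log2 fold change, follicular minus anestrus, was -0.11 over the 8 genes and -0.00067 over all genes tested.

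**Figure D1:**
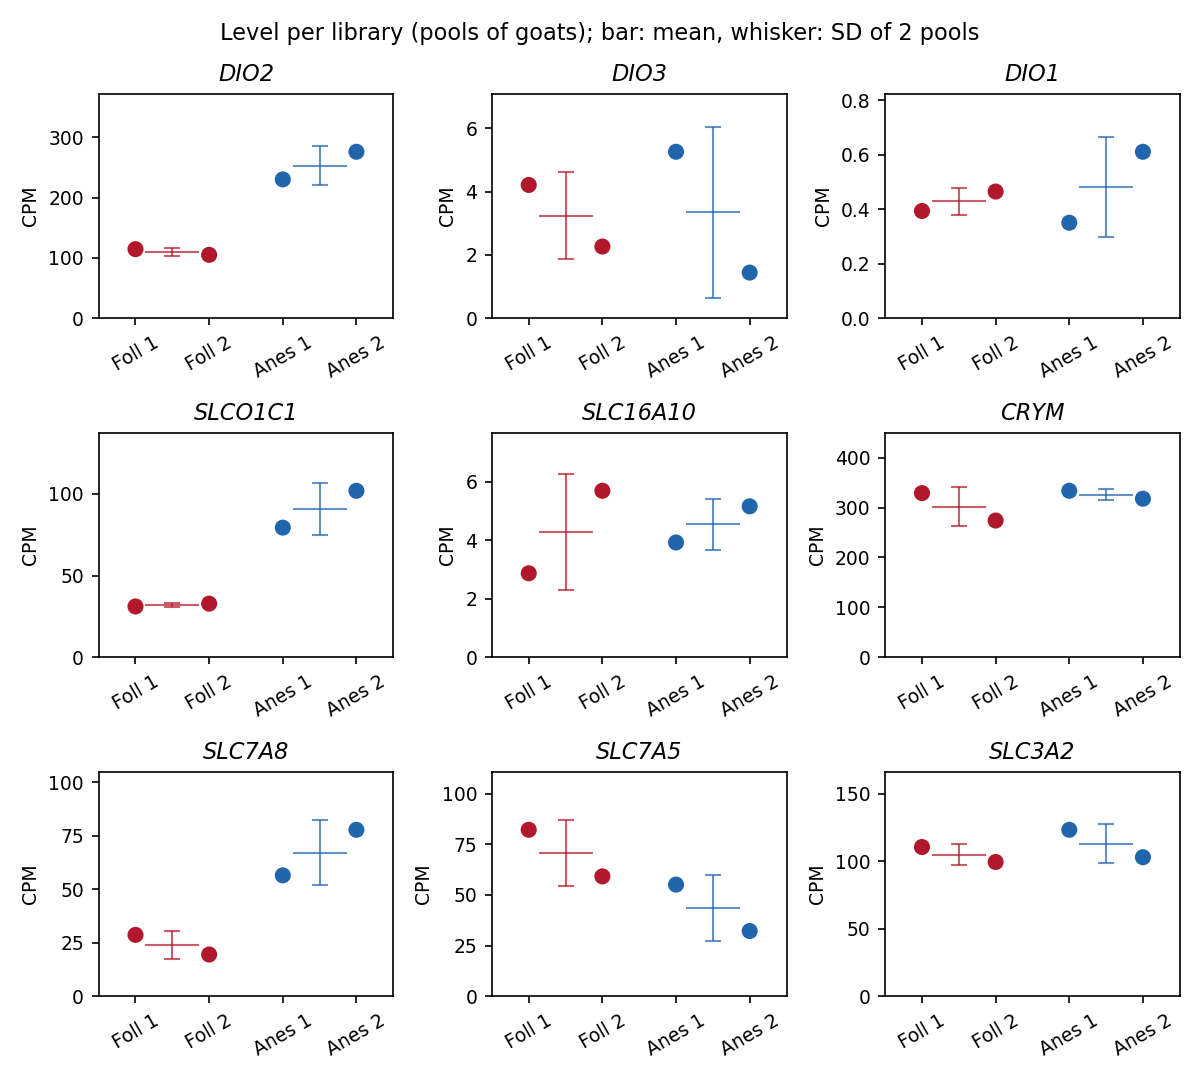
Level of each of the 9 genes in CPM (vertical axes from 0, 1 scale per panel) in the 2 follicular pools (red) and 2 anestrus pools (blue), with the mean (bar) and SD (whisker) of each group. DIO2, SLCO1C1 and SLC7A8 sit lower in both follicular pools than in either anestrus pool, SLC7A5 sits higher, and the other 5 genes overlap.

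Among the deiodinases, DIO2 (gene 102179571) reached 115 CPM in follicular pool 1 and 105 CPM in follicular pool 2, against 230 CPM in anestrus pool 1 and 276 CPM in anestrus pool 2. Both follicular pools lay below both anestrus pools, and the nearest pools of the 2 groups were 2.01-fold apart. Pools of the same group were closer to each other, at 1.09-fold in the follicular phase and 1.20-fold in anestrus. The log2 fold change was -1.20 ± 0.17 (SE), with a 95% interval of -1.57 to -0.83 and an adjusted p of 0.0226 in edgeR, and DIO2 ranked 15th among all genes by p. Without follicular pool 1 the log2 fold change of DIO2 was -1.25 and its call was lost, at an adjusted p of 0.55 within a range of 6.58e-11 to 0.55 over 14 alternatives.

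DIO3 (gene 102180706), the inactivating enzyme, was read at 4.21 CPM in follicular pool 1 and 2.27 CPM in follicular pool 2, and at 5.26 CPM in anestrus pool 1 and 1.44 CPM in anestrus pool 2. These values rest on 107, 39, 75 and 26 counts in the same order. The anestrus pools enclosed both follicular pools, and pool 1 of each condition was above pool 2. The log2 fold change of DIO3 was -0.02 ± 0.60 with an interval of -1.38 to 1.34, so that a follicular level from 0.384 to 2.54 times the anestrus level lay within the error. A difference in DIO3 as large as that of DIO2 lay within this interval and was thus not detectable with this spread between pools.

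DIO1 (gene 102178591), the deiodinase best known from liver and kidney, gave 10 and 8 reads in the follicular pools against 5 and 11 in the anestrus pools, or 0.35 to 0.61 CPM. The groups overlapped, and DIO1 did not pass the filter on low counts. Tested with no filter, its log2 fold change was -0.19 ± 0.91 (adjusted p = 0.986, edgeR).

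The balance of activating to inactivating deiodinase was taken within each library as the ratio of DIO2 to DIO3 counts, which does not depend on library size. Each DIO3 count was matched by 27.1 DIO2 counts in follicular pool 1 and 45.8 in follicular pool 2, and by 43.5 in anestrus pool 1 and 188 in anestrus pool 2. Anestrus pool 1 lay within the follicular values, at 43.5 against 45.8 in follicular pool 2, and anestrus pool 2 stood alone. On the log2 scale the ratio averaged 5.14 ± 0.54 in the follicular phase and 6.50 ± 1.49 in anestrus (SD, n = 2 pools each). The difference of -1.36 had a 2-sided exact permutation p of 0.667, where 2 pools against 2 cannot go below 0.333. Without anestrus pool 2 the difference in the DIO2 to DIO3 balance was -0.30, and without anestrus pool 1 it was -2.41. Between the anestrus pools, DIO3 differed 3.64-fold and DIO2 1.20-fold.

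**Figure D2:**
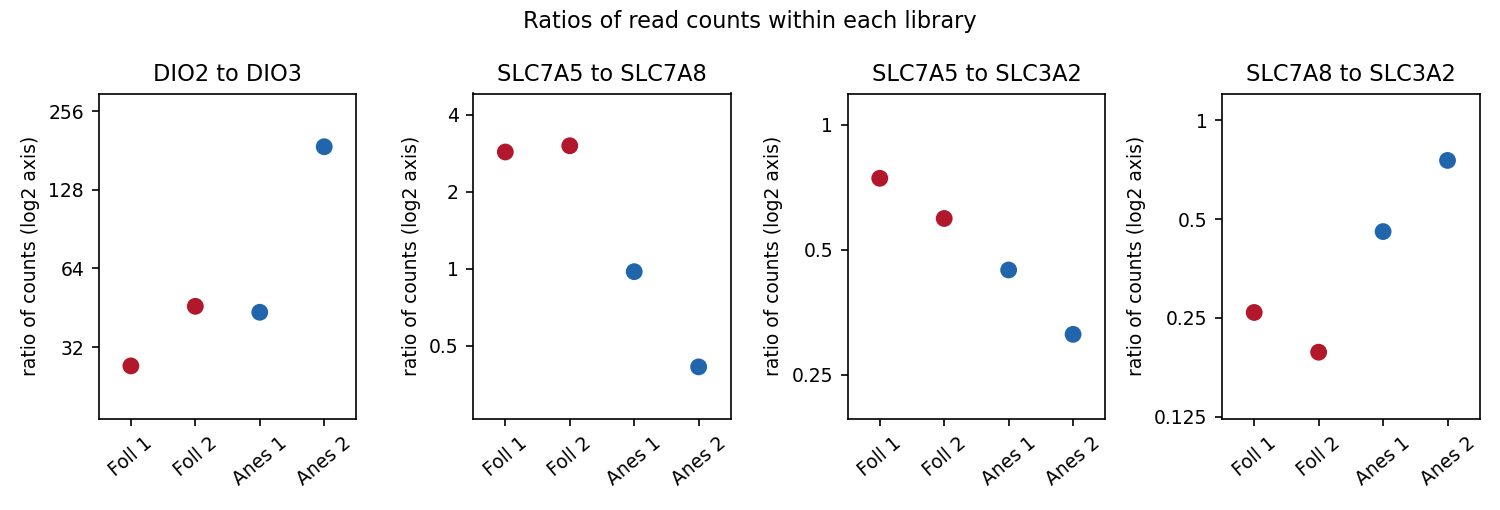
Ratio of read counts within each library on log2 axes, not corrected for transcript length, for DIO2 to DIO3, SLC7A5 to SLC7A8, SLC7A5 to SLC3A2 and SLC7A8 to SLC3A2 (red, follicular; blue, anestrus). The DIO2 to DIO3 ratio overlaps between the groups, at 27.1 and 45.8 against 43.5 and 188, whereas the SLC7A5 to SLC7A8 ratio is 2.86 and 3.03 against 0.975 and 0.414.

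Among the carriers, SLCO1C1 (gene 102168240), an organic anion transporter with high affinity for thyroxine that is known from brain capillaries and astrocytes, had the log2 fold change farthest from 0 of the 8 genes tested, with all pools. Its level was 31.1 CPM in follicular pool 1 and 32.8 CPM in follicular pool 2, against 79.3 CPM in anestrus pool 1 and 102 CPM in anestrus pool 2. The follicular pools were within 1.06-fold of each other, and the nearest pools of the 2 groups were 2.42-fold apart. The log2 fold change of SLCO1C1 was -1.50 ± 0.19, with an interval of -1.93 to -1.08 and an adjusted p of 0.0154 in edgeR, the 10th smallest p among all genes. Without follicular pool 1 the value was -1.45 and the call was lost, at an adjusted p of 0.478 within a range of 1.45e-12 to 0.478 over 14 alternatives.

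SLC7A8 and SLC7A5 are alternative light chains of the large neutral amino acid exchangers, which also carry thyroid hormones and reach the membrane bound to the heavy chain SLC3A2. SLC7A8 (gene 102173746) was at 28.7 and 19.5 CPM in the follicular pools and at 56.5 and 77.8 CPM in the anestrus pools. The groups did not overlap, and the nearest pools were 1.97-fold apart. Its log2 fold change was -1.47 ± 0.25, close in size to that of SLCO1C1, with an interval of -2.02 to -0.93. The adjusted p of 0.0524 in edgeR missed the threshold, at rank 38 of 16756 genes. SLC7A8 passed in 10 of 14 alternatives, each of which called a larger share of all genes than the 0.203% of the main settings. It passed in edgeR with median-ratio scaling (0.0369, with 0.275% of all genes called) and upper-quartile scaling (0.0421, with 0.257%). It also passed in edgeR with library totals alone (0.0474, with 0.233%) and in the DESeq2 Wald test (3.62e-05, with 0.871%). It did not pass in limma-voom (0.0507), with the filter on mean CPM (0.0567), without robust estimation (0.0538) or without follicular pool 1 (0.423), and the adjusted p ranged from 5.28e-11 to 0.423 over the 14.

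SLC7A5 (gene 102186985) had a difference of the opposite sign. Its level was 82.1 and 59.1 CPM in the follicular pools and 55.1 and 32.2 CPM in the anestrus pools, without overlap, although follicular pool 2 and anestrus pool 1 were only 1.07-fold apart. The log2 fold change of SLC7A5 was 0.70 ± 0.27, with an interval of 0.08 to 1.32, an unadjusted p of 0.0314 and an adjusted p of 0.512 in edgeR, and it did not pass. SLC7A5 passed in 2 of 14 alternatives, with no count filter (adjusted p = 0.0472) and without anestrus pool 1 (8.14e-05, at a log2 fold change of 1.13), in a range of 8.14e-05 to 1 over the 14.

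SLC3A2 (gene 102187568), the shared heavy chain, was at 111 and 99.5 CPM in the follicular pools and at 123 and 103 CPM in the anestrus pools. The groups overlapped, and the log2 fold change of SLC3A2 was -0.11 ± 0.17 with an adjusted p of 0.926 in edgeR. Its interval allowed a follicular level from 0.716 to 1.20 times that of anestrus.

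Within libraries, the light chains stood in different proportion in the 2 groups. Each SLC7A8 count was matched by 2.86 SLC7A5 counts in follicular pool 1 and 3.03 in follicular pool 2, and by 0.975 in anestrus pool 1 and 0.414 in anestrus pool 2. The follicular pools were nearly equal and both were above the anestrus pools, which differed from each other. The log2 ratio was 1.56 ± 0.06 in the follicular phase and -0.65 ± 0.87 in anestrus, a 4.63-fold difference. Its exact 2-sided permutation p of 0.333 is the smallest that 2 pools against 2 can give. Leaving out 1 pool at a time gave log2 differences in this ratio from 1.59 to 2.83. Set against the heavy chain, SLC7A8 gave 0.260 and 0.196 per SLC3A2 count in the follicular pools, against 0.458 and 0.755 in anestrus. SLC7A5 gave 0.743 and 0.594 per SLC3A2 count in the follicular pools, against 0.447 and 0.313 in anestrus. Neither ratio to SLC3A2 overlapped between groups, and neither was tested.

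SLC16A10 (gene 102181685), an aromatic amino acid transporter that also moves thyroid hormones, was at 2.87 and 5.69 CPM in the follicular pools and at 3.93 and 5.16 CPM in the anestrus pools. The follicular pools enclosed both anestrus pools, and the log2 fold change of SLC16A10 was -0.10 ± 0.42 (adjusted p = 0.978, edgeR), with a fold interval of 0.492 to 1.77. CRYM (gene 100861024), which binds triiodothyronine in the cytosol, was at 329 and 274 CPM in the follicular pools and at 334 and 318 CPM in the anestrus pools. The groups overlapped, and the log2 fold change of CRYM was -0.11 ± 0.16 (adjusted p = 0.923, edgeR). Its interval allowed a follicular level from 0.722 to 1.19 times that of anestrus.

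**Figure D3:**
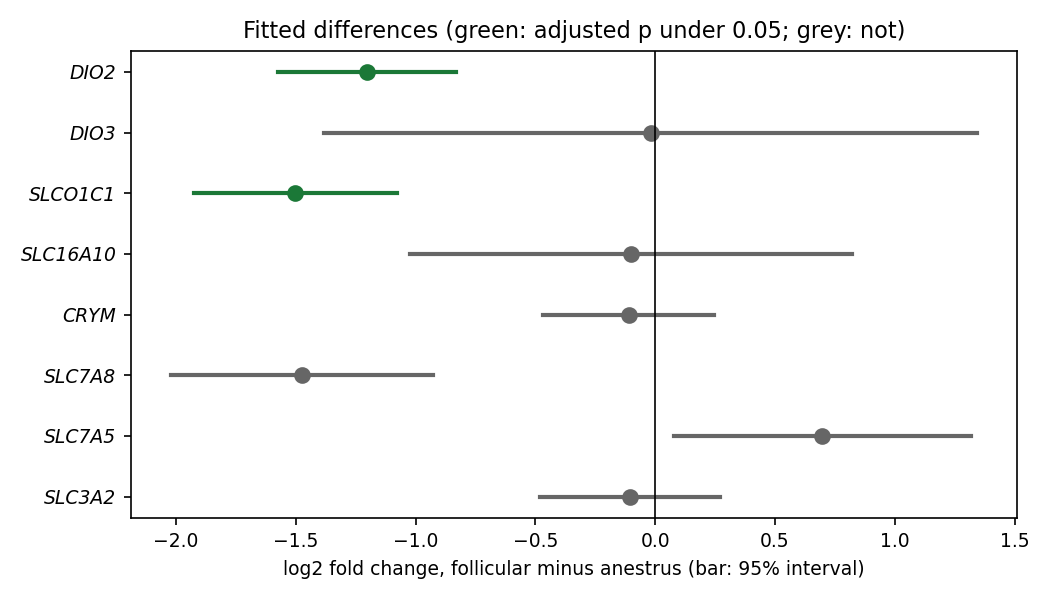
Log2 fold change, follicular minus anestrus, of the 8 genes tested, with the 95% interval from edgeR's fit (green, adjusted p under 0.05; grey, not). DIO2 and SLCO1C1 passed, SLC7A8 lies beside them at -1.47 with an adjusted p of 0.0524, and the intervals of DIO3, SLC16A10, CRYM and SLC3A2 include 0.

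Taking the 8 tested genes together, 4 had an unadjusted p under 0.05, where 8.55% of all genes did. The same 4, DIO2, SLCO1C1, SLC7A8 and SLC7A5, had no overlap between groups, against a background of 38.3%, so that lack of overlap says little by itself. Negative log2 fold changes were found for 7 of the 8 and for 50.1% of all genes tested. Between the anestrus pools, DIO2, SLCO1C1 and SLC7A8 were higher in pool 2 than in pool 1, whereas SLC7A5 and DIO3 were higher in pool 1.

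**Figure D4:**
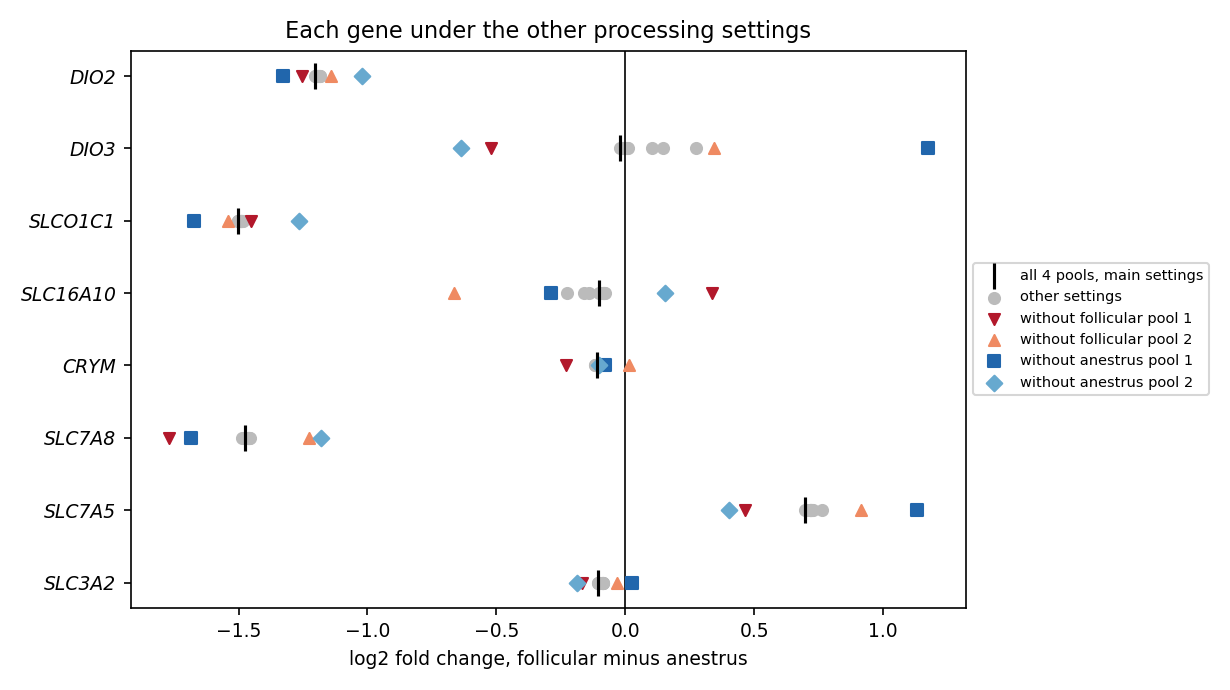
Log2 fold change, follicular minus anestrus, of the 8 genes tested with all pools and main settings (black tick), with each pool left out (coloured marks) and under the other settings (grey). DIO2, SLCO1C1, SLC7A8 and SLC7A5 keep their sign in all 14 alternatives, whereas DIO3 runs from -0.64 to 1.18 and SLC16A10 from -0.66 to 0.34.

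Upstream of DIO2, thyrotropin was followed through the messages of its subunits. Thyrotropin protein was not measured, and the part of the pituitary that these messages came from was not determined. TSHB, the hormone-specific beta subunit, was at 4.80 and 6.80 CPM in the follicular pools and at 1200.2 and 811 CPM in the anestrus pools (log2 fold change -7.45 ± 0.30, adjusted p = 6.66e-06, edgeR), and CGA had a log2 fold change of -1.30 ± 0.18 (adjusted p = 0.0206). Without follicular pool 1 the call of CGA was lost (log2 fold change -1.43, adjusted p = 0.256, in a range of 1.11e-13 to 0.256 over 14 alternatives), while TSHB passed in all 14. Within anestrus, TSHB and CGA were higher in pool 1, in which DIO2 was lower, but this sets 1 pool against 1 pool. A link between thyrotropin and DIO2 was not tested. TSHR, the thyrotropin receptor, was at 7.95 and 6.86 CPM in the follicular pools and at 6.38 and 14.99 CPM in the anestrus pools, with overlap, and did not pass (log2 fold change -0.53 ± 0.40). CREB1 and ATF2, transcription factors downstream of cyclic AMP, had log2 fold changes of -0.05 ± 0.17 and -0.02 ± 0.16. Of the 5 genes tested for thyrotropin signalling, TSHB and CGA fell and 3 did not pass.

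Of 11 further genes, which were transporters and binding proteins for thyroid hormone apart from the enzyme IYD, 7 were tested. Of these, 0 passed in edgeR, DESeq2 or limma-voom, with 0 at an unadjusted p under 0.05. Over the list the log2 fold changes had a median of -0.04. SLCO1A2, another organic anion transporter, was at 10.7 and 13.7 CPM in the follicular pools and at 6.87 and 19.0 CPM in the anestrus pools, with overlap. TTR had a log2 fold change of 1.84 ± 1.54, and without follicular pool 1 it was -0.49. SLC10A1, SERPINA7 and IYD had at most 2 counts in any library, and SLC17A4 had 0.

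Of the 10 measured genes of deiodinase synthesis and turnover, 0 passed in edgeR, DESeq2 or limma-voom, and their log2 fold changes ran from -0.18 to 0.28 about a median of -0.04. SECISBP2, which binds the selenocysteine insertion element that deiodinase messages need for translation, was at 54.6 and 46.9 CPM in the follicular pools and at 50.8 and 52.6 CPM in the anestrus pools (log2 fold change -0.02 ± 0.18). WSB1, an adaptor of the ubiquitin ligase that marks DIO2 protein for degradation, was at 259 and 271 CPM against 272 and 292 CPM, a log2 fold change of -0.09 ± 0.15. None of the 10 had an unadjusted p under 0.05. The levels of DIO2 protein and its activity were not measured.

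Of 6 tested relatives of the amino acid exchangers, 0 passed in edgeR, DESeq2 or limma-voom, and 1, SLC43A2, had an unadjusted p under 0.05. SLC43A2, a neutral amino acid uniporter, was at 21.8 and 17.1 CPM in the follicular pools and at 11.1 and 11.6 CPM in the anestrus pools, a log2 difference of 0.78 ± 0.27 (adjusted p = 0.408, edgeR). SLC7A6, SLC7A7, SLC7A10 and SLC7A11 also pair with SLC3A2. The first 3 had log2 fold changes of 0.22 ± 0.34, -0.05 ± 0.21 and 0.25 ± 0.31. SLC7A11 was at 6.42 and 9.53 CPM in the follicular pools and at 2.73 and 6.05 CPM in the anestrus pools. Its log2 fold change of 0.84 ± 0.42 was the largest of the list, on the side of SLC7A5, and did not pass (adjusted p = 0.641, edgeR).

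Downstream, 0 of 10 thyroid hormone receptor and target genes passed in edgeR, DESeq2 or limma-voom. Of the 10, 3 had an unadjusted p under 0.05 in edgeR, where 8.55% of all genes did. The median log2 fold change over the list was 0.24. THRA, the receptor form that predominates in brain, was at 157 and 143 CPM in the follicular pools and at 113 and 103 CPM in the anestrus pools (log2 fold change 0.47 ± 0.16, adjusted p = 0.413). THRB had a log2 fold change of 0.05 ± 0.17. KLF9, a transcription factor induced by triiodothyronine, was at 114 and 127 CPM against 108 and 128 CPM, with overlap and a log2 fold change of 0.03 ± 0.17. HR, a corepressor gene that thyroid hormone induces in brain, was at 37.0 and 22.5 CPM in the follicular pools and at 15.6 and 16.9 CPM in the anestrus pools, the side opposite to DIO2, but did not pass (adjusted p = 0.35). The other gene with an unadjusted p under 0.05 was the retinoid receptor RXRG, at 0.56 ± 0.22.

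**Figure D5:**
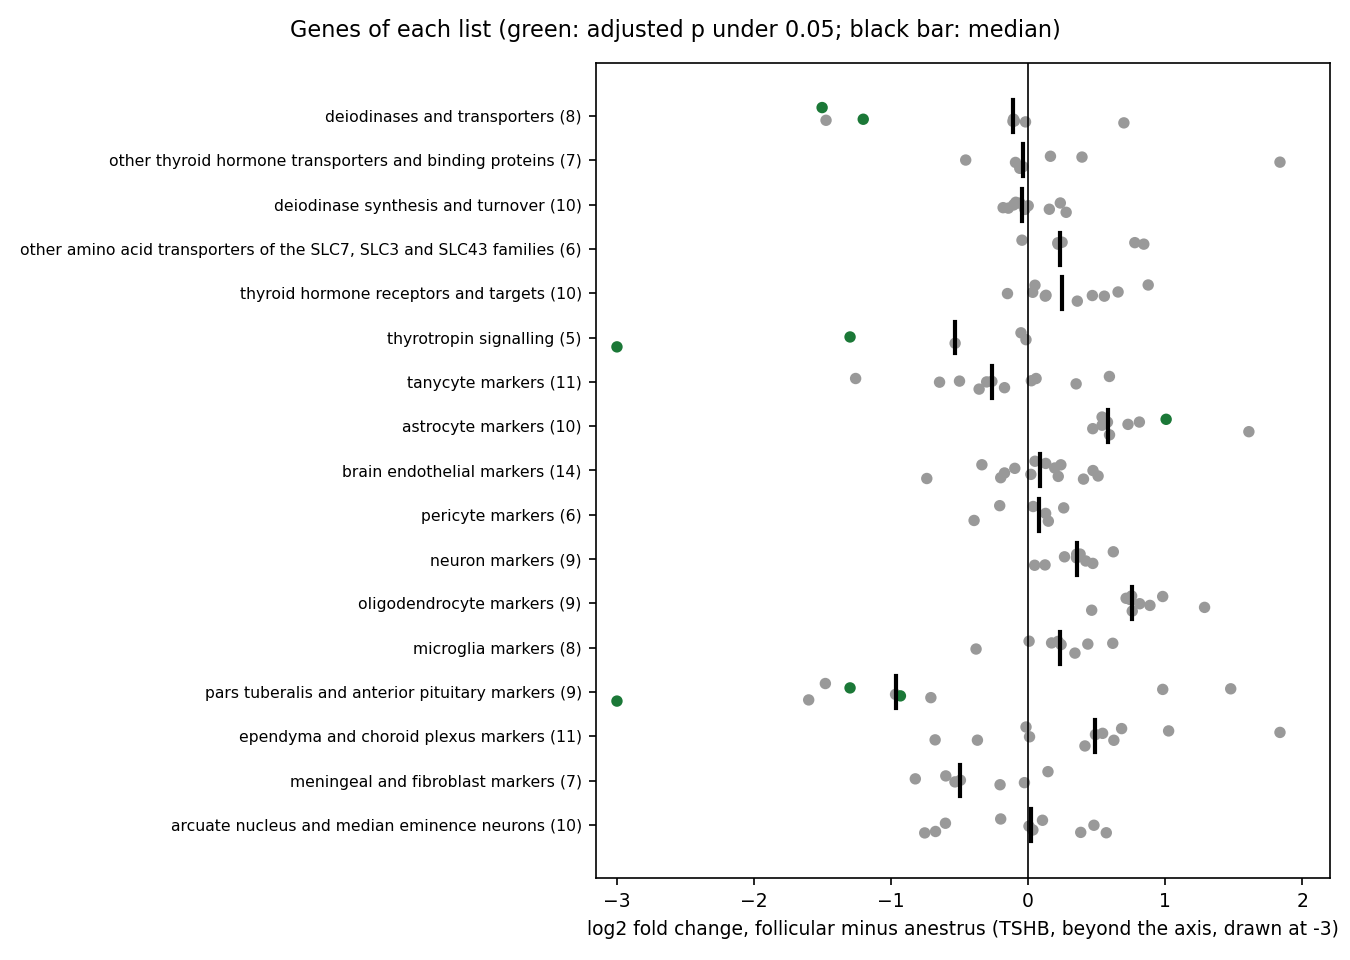
Log2 fold change, follicular minus anestrus, of the tested genes of each list (points; number in brackets), with the list's median (black bar); green points have an adjusted p under 0.05. Deiodinases and carriers spread from -1.50 to 0.70 about a median of -0.11, while astrocyte markers all lie above 0 and most pituitary markers below 0.

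Cell types known to carry these genes were followed through their markers. The counts given for these lists stand against all genes tested. Of those, 8.55% had an unadjusted p under 0.05 in edgeR, and 0.203% passed in edgeR, 0.871% in DESeq2 and 0.191% in limma-voom. Brain endothelial markers, which mark capillaries, summed to 409 and 408 CPM in the follicular pools and to 409 and 433 CPM in the anestrus pools. Of the 14, 0 passed in edgeR, DESeq2 or limma-voom, and 1 had an unadjusted p under 0.05. Among them SLC2A1, the capillary glucose transporter, had a log2 fold change of 0.22 ± 0.16, and the tight junction gene CLDN5 was at 0.94 to 3.44 CPM with 0.19 ± 0.59. Astrocyte markers went the other way from SLCO1C1, with sums of 10876 and 11684 CPM in the follicular pools and 6738 and 6701 CPM in the anestrus pools. Of the 10, GFAP, the astrocyte filament protein, rose (log2 fold change 1.01 ± 0.15, adjusted p = 0.0316, edgeR), 9 did not pass, and all 10 log2 fold changes were positive. Of the 10, 7 had an unadjusted p under 0.05, and ALDOC passed besides GFAP in DESeq2. The GFAP call was lost without follicular pool 1 (adjusted p = 0.478, in a range of 6.96e-07 to 0.478 over 14 alternatives). AQP4, the water channel of astrocyte endfeet, was among those that did not pass, at 0.54 ± 0.19.

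Tanycyte markers, other than DIO2 and CRYM, summed to 1159 and 1129.5 CPM in the follicular pools and to 1442 and 1211 CPM in the anestrus pools. Of 11 tested, 0 passed in any of the 3 tools, 1 had an unadjusted p under 0.05, 7 had a negative and 4 a positive log2 fold change, and the median was -0.26. VIM, the intermediate filament vimentin, had -0.26 ± 0.17 and RAX, a homeobox gene of tanycytes, had -1.26 ± 0.88. Markers of pars tuberalis and anterior pituitary summed to 7219 and 5584 CPM in the follicular pools and to 15811 and 12219.9 CPM in the anestrus pools, with TSHB, CGA and the epithelial adhesion gene EPCAM (log2 fold change -0.93 ± 0.16, adjusted p = 0.0493) lower among 9 tested. The EPCAM call was lost in 4 of 14 alternatives, with the filter on mean CPM (adjusted p = 0.0523), without robust estimation (0.0552), without follicular pool 1 (0.933) and without follicular pool 2 (0.123), in a range of 3.38e-05 to 0.933. In this list 5 genes had an unadjusted p under 0.05, with 7 negative and 2 positive log2 fold changes. DESeq2 also called CHGA, which was higher in the follicular pools, at 1570 and 932 CPM against 808 and 460 CPM in anestrus. CGA made up most of this list's sum in every pool. Meningeal and fibroblast markers summed to 909.7 and 1025 CPM in the follicular pools and to 1449.7 and 1307 CPM in the anestrus pools. Of 7 tested, 0 passed in edgeR or limma-voom, DCN passed in DESeq2, and 4 had an unadjusted p under 0.05.

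Oligodendrocyte markers were on the other side, at summed levels of 3463 and 4658 CPM in the follicular pools and 2930.5 and 1888 CPM in the anestrus pools. All 9 log2 fold changes were positive, 8 had an unadjusted p under 0.05, 0 passed in edgeR or limma-voom, and MOBP and MYRF passed in DESeq2. Neuron markers summed to 4915 and 5627 CPM in the follicular pools and to 4353 and 4163 CPM in the anestrus pools, with 0 of 9 passing in any of the 3 tools and 3 at an unadjusted p under 0.05. Pericyte, microglia, and ependyma and choroid plexus markers had medians of 0.08, 0.23 and 0.49, and 0 of 6, 8 and 11 passed in any of the 3 tools, with 0, 1 and 1 at an unadjusted p under 0.05. No marker of these cell type lists was at 0 counts in every pool. The part of these cell types in the results for DIO2, SLCO1C1, SLC7A8 and SLC7A5 was not tested.

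The genes whose levels followed DIO2 most closely were ranked by the Euclidean distance between centred log2 CPM over the 4 libraries, among 10381 named genes with a mean of at least 10 CPM. The 5 nearest were AMPD3 (distance 0.122), SLC39A6 (0.130), PCSK1 (0.149), PDE10A (0.153) and AMTN (0.176). AMPD3, an AMP deaminase, was at 87.9 and 78.4 CPM in the follicular pools and at 191 and 207 CPM in the anestrus pools. For SLCO1C1 the nearest were BLNK (0.120), ATP8B4 (0.136), GRHL1 (0.156), PDE10A (0.194) and SMC4 (0.239). PDE10A, a phosphodiesterase that degrades cyclic nucleotides, was near both, at 47.9 and 45.4 CPM in the follicular pools and 103 and 133 CPM in the anestrus pools. These genes were picked for their likeness over 4 libraries, so their own differences are a description.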

How the data were processed

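The authors deposited raw read counts per gene, unnormalized. TriReagent extraction and a stranded Truseq mRNA library kit are stated per the labels' protocols. The submitters' processing notes name featureCounts 2.0.0, TopHat2 2.1.1, SAMtools 1.9 and Bowtie2 2.3.5.1. No build, annotation release, strand setting or multi-mapping rule is given in the sources used here, so no coordinates are printed.

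Genes were kept with filterByExpr (minimum count 10, minimum total 15), scaled by TMM and fitted in edgeR 4.0.16 under R 4.3.3 (robust glmQLFit and glmQLFTest with 1 mean per group, which leaves 2 residual degrees of freedom). Benjamini-Hochberg adjustment was over all genes tested. SE was the log2 fold change divided by the root of F. Ratios were of counts with 0.5 added. The edgeR steps were checked on simulated counts, in which 52.2% of genes changed 2-fold, 95.5% changed 4-fold and 100% changed 8-fold were called. Of 171 calls, 6 were false. The simulated scatter followed the trend over all genes and not each gene's own, so these rates need not hold for single genes here. Alternatives included DESeq2 1.42.0 and limma-voom (limma 3.58.1).

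The genes and lists were chosen with earlier results of these data known. Of 165 list entries, 158 matched a symbol or RefSeq synonym (ARS1.2 gene table). Named genes were the 9, every called list gene, 17 named by choice, of which DIO3OS matched no symbol, and the 5 nearest to DIO2 and to SLCO1C1. CREB1, ATF2, HR, RXRG, SLC43A2, SLC7A6, SLC7A7, SLC7A10, SLC7A11, ALDOC, CHGA, DCN, MOBP, MYRF, ABCB1 and ABCG2 were named after their values were seen. Some further genes are not reported here. Titles swap the numbers that the library names give the anestrus pools. Numbers here follow the library names, as the count columns do. Follicular pools differed from each other beyond sampling noise, and so did anestrus pools (chi-square per degree of freedom 20.0 and 30.8).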

Additional observations from a re-analysis of the deposited data

How the results depend on the processing

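The number of genes called, 34 of 16756 with all pools, was 300 with no count filter, 146 in DESeq2, 90 with a replicate block by library name and 130 with a replicate block by title, and ran from 4 to 810 as each pool was left out. Among the 9 genes, 2 were called in the main settings, where 0.203% of all genes tested were. With no count filter 4 of the 9 were called, where 1.38% of all genes tested were. In DESeq2 these numbers were 3 and 0.871%, so the calls among the 9 grew as calls grew over all genes. The cause of these shifts was not tested. With 1 pool left in a group, that group has no spread of its own and is assumed to vary like the other. Among the 8 tested genes, 98 of 112 alternative values kept their direction or stayed uncalled, 2 lost a call (DIO2 and SLCO1C1 without follicular pool 1), 12 gained one (SLC7A8 in 10 and SLC7A5 in 2) and 0 reversed. A value counted as reversed only where a call was involved, and uncalled values changed sign for DIO3, SLC16A10, SLC3A2 and CRYM. Deviations of same-numbered pools correlated at r = 0.26 across 16756 genes by library name and at -0.26 by title. With 2 pools per group this does not establish pairing. With the block, SLC7A8 passed by library name (adjusted p = 0.037) and by title (2.21e-05), and no other of the 8 changed its call. Both ratios kept their sign in all 7 alternatives each. Of these, the replicate block by library name cannot move a ratio, and changing the count added moved it little. As each pool was left out, the DIO2 to DIO3 difference ran from -2.41 to -0.30 on the log2 scale. The SLC7A5 to SLC7A8 difference ran from 1.59 to 2.83. Depth limits DIO1, which had 5 to 11 counts per pool.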

Other observations

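Another transporter of the capillary list differed in the same direction as SLCO1C1 without passing, and was picked out after its values were seen. ABCG2, an efflux pump of the blood-brain barrier, was at 43.3 and 44.1 CPM in the follicular pools and at 72.3 and 73.5 CPM in the anestrus pools. Its log2 fold change was -0.74 ± 0.17, with an adjusted p of 0.217 in edgeR. ABCB1, the other efflux pump on the list, was at 35.1 and 31.2 CPM in the follicular pools and at 41.6 and 33.1 CPM in the anestrus pools, with overlap and a log2 fold change of -0.17 ± 0.21. Of the 14 capillary markers, 5 had a negative log2 fold change, these 2 efflux pumps among them, and 9 a positive one, with a median of 0.09.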
